A study of Mus musculus with 35 samples.

Results

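The mouse genes for apolipoprotein E (Apoe), clusterin (Clu), the sterol transporters Abca1 and Abcg1, the liver X receptors Nr1h2 and Nr1h3, lecithin-cholesterol acyltransferase (Lcat), lipoprotein lipase (Lpl) and the lipoprotein receptors Lrp1 and Scarb1 were followed in sorted brain cells. They were taken by name as a set that carries cholesterol from glia in lipoprotein particles and controls that export, and they are 10 of the 54119 genes to which transcripts were assigned. All 10 passed the filter on low counts in every comparison. The cells came from male C57BL/6JRj mice given either standard chow (SC) or the diet labelled HFHS (58%, high in fat and sugar), started at 8 to 9 weeks of age and kept up for 4 months. No group carried a transgene or a deletion, and every mouse was of the same strain and sex. For each replicate, hypothalami, hippocampi or cortices (1 side of the cortex) of 2 animals were pooled, and cells that bind an antibody to ACSA2, the product of Atp1b2 on the surface of astrocytes, were pulled down on magnetic columns.

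The groups were 6 SC and 5 HFHS pools of hypothalamus, 5 SC and 7 HFHS pools of hippocampus, and 6 SC and 6 HFHS pools of cortex. Cortex was sorted on larger (LS) columns with scaled reagents and the other regions on MS columns, so that column and region cannot be told apart. Depth per library, of 35, was 47578560 to 65982495 estimated reads. In 3 of them (cortex SC 6, cortex HFHS 6 and hypothalamus SC 6) the mean length of the transcripts measured was 1034, 1191 and 1469 bases, against 1533 to 1858 bases in the other 32 libraries, and results that rest on these 3 are given with and without them.

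The label of the cells was checked against 18 astrocyte and 12 oligodendrocyte marker genes, and none of these was at 0 throughout a group. The astrocyte markers summed to a median of 17049.4 TPM (a transcript level corrected for transcript length and for depth) in cortex SC and 18021.9 TPM in cortex HFHS. The medians were 4109.6 and 5628.0 TPM in hypothalamus and 2752.4 and 3014.3 TPM in hippocampus, in the same order of diets. Oligodendrocyte markers summed to medians of 29989.2 and 35240.8 TPM in cortex, 76572.0 and 73036.4 TPM in hypothalamus and 70967.1 and 70074.0 TPM in hippocampus, so that in summed TPM they exceeded the astrocyte markers in all 6 groups. In cortex that order depended on the measure. As a mean of log2 CPM (counts scaled to library size) over the markers, astrocyte markers were higher there. The means were 9.76 against 9.14 in cortex SC and 9.63 against 9.52 in cortex HFHS. Atp1b2 itself had a mean of 459.5 ± 223.1 TPM (SD, n = 6) in cortex SC, 265.9 ± 64.1 TPM (n = 6) in hypothalamus SC and 151.2 ± 92.8 TPM (n = 5) in hippocampus SC. Markers of other cell types were also high outside cortex. The 6 choroid plexus markers summed to medians of 14311.6 and 11089.9 TPM in hippocampus, against 569.6 and 375.8 TPM in cortex (SC and HFHS). The 10 ependymal markers summed to medians of 4996.4 and 3983.6 TPM in hypothalamus, against 114.7 and 107.1 TPM in cortex. The 9 neuronal markers summed to medians of 361.8 and 347.5 TPM in cortex. They summed to 167.1 and 130.5 TPM in hypothalamus and 121.5 and 126.1 TPM in hippocampus. The part of these cell types in the region differences was not tested. In such sorted pools, fewer cells of a type and less RNA per cell cannot be told apart.

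Cholesterol in the brain is made locally, since plasma lipoproteins do not cross the blood-brain barrier, and astrocytes supply much of it to neurons. They load cholesterol and phospholipid onto apolipoprotein E and clusterin through ABCA1 and ABCG1, and the resulting particles resemble high-density lipoprotein. Oxysterols activate the liver X receptors LXRα (Nr1h3) and LXRβ (Nr1h2), which pair with retinoid X receptors and raise transcription of Abca1, Abcg1 and Apoe, among other genes.

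The largest contrast among the 10 genes was between regions. Apoe, Clu and Lcat, encoding 2 apolipoproteins and the enzyme that esterifies cholesterol on their particles, were lower in hypothalamus and hippocampus than in cortex on both diets. Abcg1 was higher in both regions than in cortex on SC, and Nr1h3 was higher in hippocampus than in cortex on HFHS. No member passed the test for diet in any region. Every library's level is shown in the plot of the 10 genes by region and diet.

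**Figure D1:**
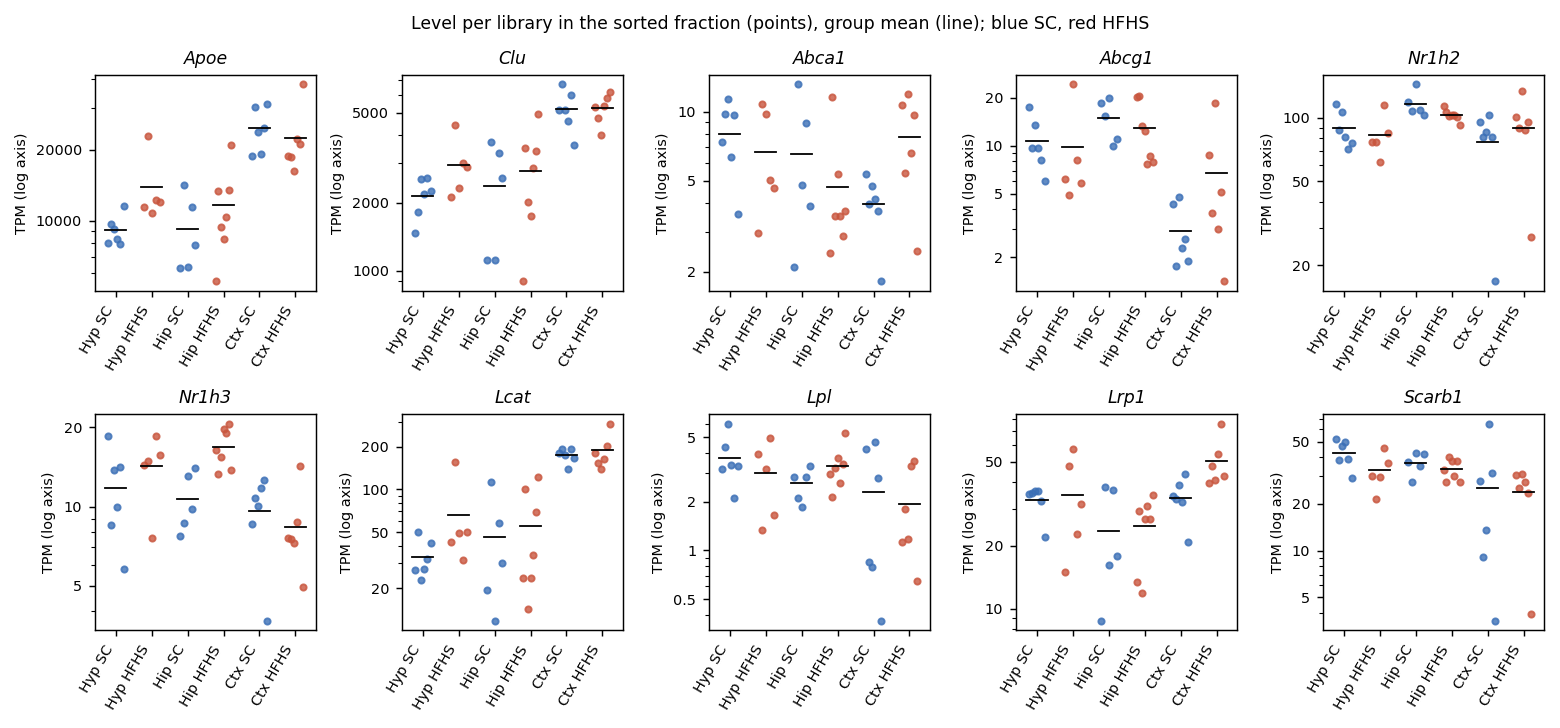
Level of each of the 10 genes in TPM (log axis) in each of the 35 libraries by region and diet. Points are libraries (blue SC, red HFHS) and horizontal lines are group means. Apoe, Clu and Lcat sit highest in cortex, whereas Abcg1 sits lowest in cortex SC, where its 6 values lie between 1.76 and 4.80 TPM.

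Apoe (chromosome 7, 19696109 to 19699188, minus strand, GRCm38), the main lipid carrier secreted by astrocytes, had the highest level of the 10 genes in every group. In cortex it ranged from 18739.2 to 31228.4 TPM on SC (median 24230.8) and from 16286.3 to 37825.9 TPM on HFHS (median 19947.5). In hypothalamus SC it ranged from 7965.9 to 11578.6 TPM (median 8751.4), and the 5 HFHS pools held 11445.3, 22835.6, 10795.2, 12254.0 and 11973.0 TPM. In hippocampus SC the 5 pools held 6311.0, 14191.8, 6369.0, 11361.3 and 7861.5 TPM, and the 7 HFHS pools ranged from 5519.9 to 20914.1 TPM with a median of 10401.6. On SC, no hypothalamic or hippocampal pool reached the lowest cortical pool, whereas on HFHS each of these regions overlapped cortex.

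Group means of Apoe ran from 24619.9 ± 5296.0 TPM (SD, n = 6) in cortex SC through 22468.9 ± 7803.9 TPM (n = 6) in cortex HFHS, 13860.6 ± 5047.9 TPM (n = 5) in hypothalamus HFHS, 11641.9 ± 4959.8 TPM (n = 7) in hippocampus HFHS and 9218.9 ± 3454.7 TPM (n = 5) in hippocampus SC to 9118.0 ± 1373.5 TPM (n = 6) in hypothalamus SC. Each neighbouring pair in that order overlapped. Its leading transcript, the protein-coding Apoe-209 of 1104 bases, held 70.2 to 73.3% of the gene's TPM as a group mean. Tested on counts across all genes with edgeR's quasi-likelihood test and Benjamini-Hochberg adjustment, Apoe was 4.46-fold lower in hypothalamus than in cortex on SC (log2 -2.16 ± 0.40 SE, adjusted p = 8.35e-05) and 4.54-fold lower in hippocampus than in cortex on SC (log2 -2.18 ± 0.43, adjusted p = 0.00034). The difference was smaller on the TPM scale, at log2 -1.42 and -1.47 by limma on log2(TPM + 1), and without the 3 short libraries it was log2 -1.76 and -1.62. On HFHS it was log2 -1.15 ± 0.42 in hypothalamus (adjusted p = 0.042) and log2 -1.39 ± 0.38 in hippocampus (adjusted p = 0.0064). Without cortex HFHS 6, the highest Apoe value of all 35, they were log2 -0.53 (adjusted p = 0.318) and log2 -0.77 (adjusted p = 0.085). Without all 3 short libraries, cortex HFHS 6 among them, Apoe was at log2 -0.57 in hypothalamus (adjusted p = 0.128) and was still lower in hippocampus, at log2 -0.80 (adjusted p = 0.0188). The hypothalamic call on HFHS was also lost without hypothalamus HFHS 1, 3, 4 or 5 (adjusted p = 0.0769 to 0.0987), without the filter (0.0525) and with the replicate block (log2 -0.72, adjusted p = 0.0536).

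Clu (chromosome 14, 65968483 to 65981547, plus strand), which encodes clusterin, an apolipoprotein and extracellular chaperone also known as apolipoprotein J, was the next most abundant of the 10. In cortex it ranged from 3613.2 to 6683.1 TPM on SC (median 5158.2) and from 3970.7 to 6157.2 TPM on HFHS (median 5326.3). In hypothalamus SC it ranged from 1472.0 to 2582.3 TPM (median 2212.7), and the HFHS pools held 2118.3, 4403.0, 2321.9, 2999.7 and 2883.8 TPM. In hippocampus the SC pools held 1118.1, 3698.9, 1115.3, 3314.4 and 2571.6 TPM and the HFHS pools ranged from 896.9 to 4922.7 TPM (median 2847.4). Hypothalamus and cortex did not overlap on SC, and hippocampus and cortex on SC overlapped by a single hippocampal pool.

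Group means of Clu were highest in cortex, at 5227.6 ± 785.2 TPM (SD, n = 6) on HFHS and 5200.3 ± 1070.8 TPM (n = 6) on SC. They were lowest in hypothalamus SC, at 2138.5 ± 428.5 TPM (n = 6), with the remaining groups between 2363.7 and 2945.3 TPM and every neighbouring pair overlapping. The protein-coding Clu-201 held 95.03 to 96.98% of the gene's TPM as a group mean. By edgeR with Benjamini-Hochberg adjustment, Clu was lower than in cortex by log2 -1.90 ± 0.35 SE in hypothalamus SC (3.72-fold, adjusted p = 6.78e-05) and by log2 -1.68 ± 0.37 in hippocampus SC (adjusted p = 0.00092). On HFHS the differences were log2 -1.23 ± 0.36 (adjusted p = 0.0127) and log2 -1.25 ± 0.33 (adjusted p = 0.0051). The first of these was log2 -0.88 (adjusted p = 0.061) without cortex HFHS 6, but log2 -0.93 (adjusted p = 0.0408) without all 3 short libraries. Without the 3 short libraries the 2 SC differences were log2 -1.78 and -1.48, and on the TPM scale log2 -1.28 and -1.29, all past the threshold.

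Apoe and Clu kept nearly the same proportion to each other in every group. The mean log2 ratio of Apoe to Clu in TPM lay between 2.06 and 2.24 in the 6 groups, with SDs of 0.18 to 0.44. Over 9 comparisons of region or diet, the exact permutation test (two-sided, adjusted with all 27 tests of ratios) gave adjusted p between 0.593 and 0.942.

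Lcat (chromosome 8, 105939551 to 105943382, minus strand) encodes the enzyme that esterifies cholesterol on high-density lipoprotein particles and is activated by apolipoproteins. In cortex its level ranged from 139.2 to 192.8 TPM on SC (median 176.7) and from 140.0 to 290.7 TPM on HFHS (median 172.1). In hypothalamus SC it ranged from 22.8 to 50.1 TPM (median 29.9), and the HFHS pools held 42.5, 155.4, 49.1, 31.9 and 50.4 TPM. In hippocampus the SC pools held 19.4, 112.9, 11.8, 57.6 and 30.0 TPM and the HFHS pools ranged from 14.3 to 121.7 TPM (median 34.4). Lcat did not overlap between either region and cortex on SC, nor between hippocampus and cortex on HFHS, and hypothalamus HFHS overlapped cortex HFHS through replicate 2 alone.

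Lcat gave the largest fold difference between regions among the 10 genes. By edgeR with Benjamini-Hochberg adjustment, it was 8.42-fold lower in hypothalamus than in cortex on SC (log2 -3.07 ± 0.55 SE, adjusted p = 4.75e-05) and 5.83-fold lower in hippocampus (log2 -2.54 ± 0.58, adjusted p = 0.00127). On HFHS it was 3.85-fold lower in hypothalamus (log2 -1.95 ± 0.56, adjusted p = 0.0106) and 4.54-fold lower in hippocampus (log2 -2.18 ± 0.50, adjusted p = 0.0017). In TPM the group means were 188.5 ± 54.5 (SD, n = 6) in cortex HFHS, 174.0 ± 20.1 (n = 6) in cortex SC, 65.9 ± 50.6 (n = 5) in hypothalamus HFHS, 55.2 ± 42.2 (n = 7) in hippocampus HFHS, 46.3 ± 41.1 (n = 5) in hippocampus SC and 33.6 ± 10.4 (n = 6) in hypothalamus SC. Each neighbouring pair in that order overlapped. The hypothalamic difference on HFHS lost its call without cortex HFHS 6 (log2 -1.41, adjusted p = 0.0533). Without all 3 short libraries it was log2 -1.46 (adjusted p = 0.0380), and the Lcat differences on SC were log2 -2.88 in hypothalamus and -2.16 in hippocampus, both past the threshold.

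Lpl (chromosome 8, 68880491 to 68907448, plus strand), the lipase that releases fatty acids from triglyceride-rich lipoproteins, had the lowest level of the 10 in all 6 groups, with 92 to 644 reads per library. Its group means ran from 3.74 ± 1.34 TPM (SD, n = 6) in hypothalamus SC to 1.94 ± 1.22 TPM (n = 6) in cortex HFHS. The lowest pool held 0.37 TPM and the highest 6.05 TPM, and the ranges of every pair of neighbouring groups overlapped. Of that level, the full-length protein-coding transcript Lpl-201 held means of 0.69 to 1.25 TPM, and Lpl-203, annotated as subject to nonsense-mediated decay, held 22.9 to 46.4%. No comparison passed the threshold for Lpl. The smallest adjusted p by edgeR was that of hippocampus against cortex on HFHS, at log2 0.58 ± 0.33 (adjusted p = 0.203). In hippocampus it was at 2.15 to 5.29 TPM (median 3.22) on HFHS and at 2.83, 2.10, 1.86, 2.86 and 3.34 TPM on SC, which differed by log2 0.47 ± 0.23 (unadjusted p = 0.0652, adjusted p = 0.876 by edgeR).

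Abca1 (chromosome 4, 53030787 to 53159895, minus strand), which moves cholesterol and phospholipid onto lipid-poor apolipoproteins, was low in all groups. It ranged from 1.82 to 5.33 TPM in cortex SC (median 4.06) and from 2.46 to 11.9 TPM in cortex HFHS (median 8.15). In hypothalamus it ranged from 3.56 to 11.3 TPM on SC (median 8.57) and held 2.94, 10.8, 9.81, 5.05 and 4.66 TPM in the HFHS pools. The hippocampal SC pools held 2.10, 13.2, 4.77, 8.93 and 3.88 TPM and the HFHS pools ranged from 2.43 to 11.7 TPM (median 3.51). The groups overlapped throughout, though 5 of the 6 cortex HFHS pools lay above the highest cortex SC pool.

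Group means of Abca1 were 8.04 ± 2.83 TPM (SD, n = 6) in hypothalamus SC, 7.80 ± 3.599 TPM (n = 6) in cortex HFHS, 6.66 ± 3.45 TPM (n = 5) in hypothalamus HFHS, 6.57 ± 4.47 TPM (n = 5) in hippocampus SC, 4.71 ± 3.20 TPM (n = 7) in hippocampus HFHS and 3.95 ± 1.199 TPM (n = 6) in cortex SC. In the cortex, the edgeR difference of HFHS from SC was log2 0.78 ± 0.21 SE (95% interval 0.32 to 1.24, unadjusted p = 0.0027, adjusted p = 0.181). It ranked 268 among the 17844 genes tested. Abca1 passed the threshold in that comparison without the 3 short libraries (log2 0.95, adjusted p = 0.0255) and with DESeq2 (log2 0.78, adjusted p = 0.025). No difference between regions passed, the nearest being hippocampus against cortex on HFHS at log2 -0.84 ± 0.35 (adjusted p = 0.0792), which became log2 -1.23 (adjusted p = 0.0063) without hippocampus HFHS 2.

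The LXR response element is a direct repeat with a spacer of arbitrary bases, and the Abca1 promoter carries a well studied one. The 250 bases before the Abca1 start in RefSeq (GRCm38.p6, chr4:53159896-53160145, minus strand) are shown because they hold a match to it. Capitals mark the match, which reads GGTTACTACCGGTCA on the opposite strand, 67 to 53 bases before the start.
Abca1 promoter: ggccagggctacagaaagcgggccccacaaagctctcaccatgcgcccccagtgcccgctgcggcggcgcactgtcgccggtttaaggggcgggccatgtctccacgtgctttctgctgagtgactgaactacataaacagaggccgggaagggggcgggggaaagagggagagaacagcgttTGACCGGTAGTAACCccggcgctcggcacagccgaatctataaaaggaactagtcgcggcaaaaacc
4 forms of the repeat were searched on both strands (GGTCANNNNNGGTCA, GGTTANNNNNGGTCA, GGTCANNNNNGGTTA and GGTTANNNNNGGTTA) in the same 250-base window of 32851 promoters. They occurred in 21, 15, 15 and 12 promoters, and any of them in 63 (0.192%). Among the members with a promoter in that table (Apoe, Abca1, Nr1h2, Nr1h3, Lcat and Lrp1) only Abca1 held a match. Of the LXR target list, Srebf1 held one 182 to 168 bases before its start and Fasn one 225 to 211 bases before it.

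Abcg1 (chromosome 17, 31057675 to 31117988, plus strand), which exports cholesterol to particles that already carry lipid, had its lowest levels in cortex SC. Its values there ranged from 1.76 to 4.80 TPM (median 2.45), and in cortex HFHS from 1.42 to 18.6 TPM (median 4.46). In hypothalamus it ranged from 6.00 to 17.6 TPM on SC (median 9.73), and the HFHS pools held 6.22, 4.91, 24.3, 8.13 and 5.88 TPM. The SC pools of hippocampus held 18.7, 15.3, 20.0, 9.94 and 11.1 TPM and the HFHS pools ranged from 7.68 to 20.5 TPM (median 12.3). On SC neither region overlapped cortex, whereas on HFHS both did.

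By edgeR with Benjamini-Hochberg adjustment, Abcg1 was 2.45-fold higher in hypothalamus than in cortex on SC (log2 1.29 ± 0.41 SE, adjusted p = 0.0132) and higher in hippocampus by log2 1.93 ± 0.43 (adjusted p = 0.0010), and by log2 1.48 and 2.07 without the short libraries. On HFHS the differences were log2 0.35 ± 0.42 (adjusted p = 0.608) and log2 0.74 ± 0.39 (adjusted p = 0.173). The second passed the threshold on the TPM scale (log2 1.08, adjusted p = 0.0237), without cortex HFHS 3 (log2 1.25, adjusted p = 0.0133) and with the replicate number as a block (log2 1.10, adjusted p = 0.0064). In TPM the group means of Abcg1 were 15.02 ± 4.47 (SD, n = 5) in hippocampus SC, 12.9 ± 5.49 (n = 7) in hippocampus HFHS, 10.8 ± 4.15 (n = 6) in hypothalamus SC, 9.89 ± 8.15 (n = 5) in hypothalamus HFHS, 6.79 ± 6.29 (n = 6) in cortex HFHS and 2.95 ± 1.29 (n = 6) in cortex SC, and each neighbouring pair overlapped. Cortex HFHS 3, with the highest cortical Abcg1 level, also had the highest oligodendrocyte score of the cortex (mean log2 CPM, or counts scaled to library size, of 11.09, against a group mean of 9.52 ± 0.95). The part of oligodendrocyte RNA in its level was not tested.

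The balance of the 2 transporters differed between hippocampus and cortex. The log2 ratio of Abcg1 to Abca1 in TPM was 3.15, 0.22, 2.07, 0.16 and 1.51 in the hippocampus SC pools and ranged from -1.18 to 0.07 in cortex SC. On HFHS it ranged from 0.81 to 3.05 in hippocampus (median 1.204) and from -1.13 to 0.64 in cortex (median -0.66). The groups did not overlap on either diet. Means were 1.42 ± 1.27 (SD, n = 5) against -0.46 ± 0.49 (n = 6) on SC, a difference of 1.88 (exact two-sided permutation test, p = 0.0022, adjusted p = 0.0227), and 1.55 ± 0.76 (n = 7) against -0.50 ± 0.63 (n = 6) on HFHS, a difference of 2.05 (exact permutation p = 0.00058, adjusted p = 0.0157). Without the short libraries the SC difference was 1.99 (adjusted p = 0.0536, exact permutation test). Without single libraries the SC difference was 1.45 to 2.20 and lost its call in all but 1 of 11 tests (adjusted p = 0.0429 to 0.0714, with only the test without hippocampus SC 5 past the threshold). As the SC groups did not overlap, p in each of these tests was the smallest that the remaining libraries allow. These lost calls therefore cannot show whether the SC difference rests on a single library. The HFHS difference passed in all 13 such tests. Hypothalamus lay between the other regions, at 0.43 ± 0.55 (n = 6) on SC and 0.45 ± 0.97 (n = 5) on HFHS, with no comparison past the threshold. Within a region the diets differed in mean by 0.02 to 0.12 in size, or less than the SD of each group. The hippocampal and cortical libraries also differ in their astrocyte and oligodendrocyte marker levels, given above, and the part of these in the ratio was not tested.

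**Figure D2:**
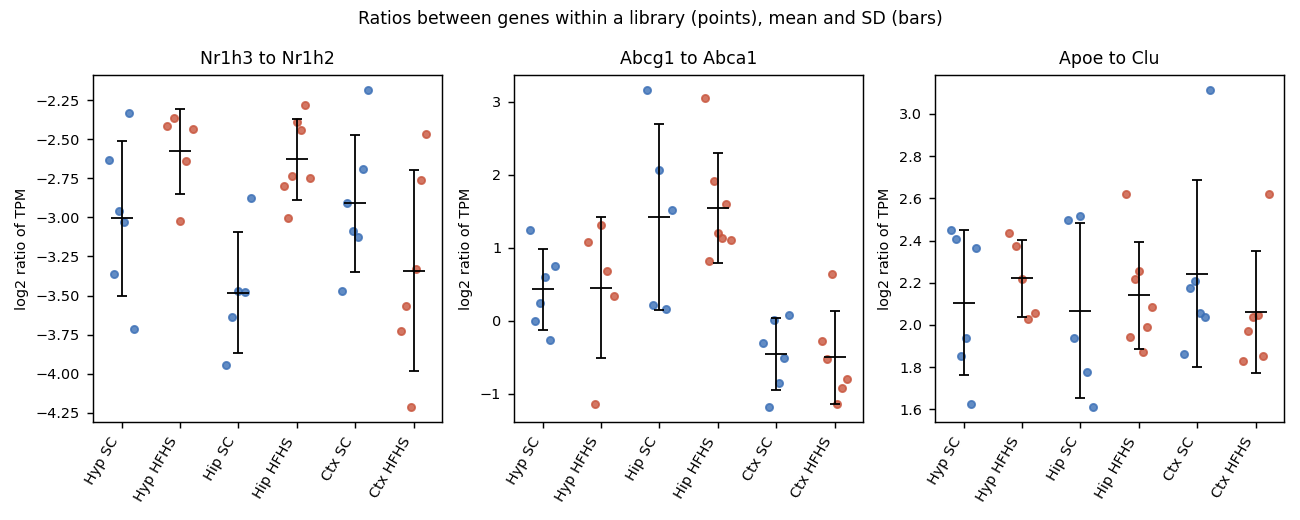
Log2 ratios in TPM of Apoe to Clu, Nr1h3 to Nr1h2 and Abcg1 to Abca1 in each library by region and diet. Points are libraries (blue SC, red HFHS) and bars are group means with SD. The Abcg1 to Abca1 ratio has a mean of 1.42 and 1.55 in hippocampus and of -0.46 and -0.50 in cortex, and the Nr1h3 to Nr1h2 ratio differs between diets in hippocampus, at -3.48 on SC and -2.63 on HFHS.

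Lrp1 (chromosome 10, 127538161 to 127621148, minus strand), a large endocytic receptor that takes up apolipoprotein E particles, ranged from 39.6 to 76.0 TPM in cortex HFHS (median 45.4) and from 20.7 to 43.6 TPM in cortex SC (median 34.0). In hypothalamus it ranged from 21.9 to 36.4 TPM on SC (median 35.3) and held 15.02, 47.6, 57.5, 22.7 and 31.7 TPM in the HFHS pools. The hippocampal SC pools held 8.79, 38.0, 16.2, 36.9 and 17.9 TPM, and the HFHS pools ranged from 11.8 to 34.7 TPM (median 26.8). In TPM summed over all its transcripts, cortex HFHS lay above both hippocampal groups and hypothalamus SC without overlap, and every other pair of groups overlapped.

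By edgeR with Benjamini-Hochberg adjustment, Lrp1 was 2.24-fold lower in hippocampus than in cortex on HFHS (log2 -1.17 ± 0.39 SE, adjusted p = 0.0258). Leaving out hippocampus HFHS 1, 3 or 4 or cortex HFHS 5 moved the adjusted p to between 0.0513 and 0.0605, and without the short libraries the difference was log2 -1.22 (adjusted p = 0.0249). Lrp1 in the cortex differed between diets by log2 0.52 ± 0.18 (95% interval 0.14 to 0.90, unadjusted p = 0.0102, adjusted p = 0.302 by edgeR and 0.021 by DESeq2). In TPM the means were 50.3 ± 13.7 (SD, n = 6) in cortex HFHS, 34.9 ± 17.5 (n = 5) in hypothalamus HFHS, 33.8 ± 7.66 (n = 6) in cortex SC, 32.9 ± 5.56 (n = 6) in hypothalamus SC, 24.8 ± 8.73 (n = 7) in hippocampus HFHS and 23.6 ± 13.2 (n = 5) in hippocampus SC, with every neighbouring pair overlapping. The summed TPM of Lrp1 was carried largely by a short transcript, the 763-base retained-intron Lrp1-208, which held 46.0% of it in hypothalamus SC and 73.1% in cortex SC as group means. The 14888-base protein-coding Lrp1-201 had means between 6.59 TPM (hippocampus HFHS) and 13.9 TPM (hypothalamus SC). The level of the coding transcript alone is thus lower than the gene's sum, and its order of groups differs. The coding transcript was highest in hypothalamus SC, whereas the sum was highest in cortex HFHS.

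Scarb1 (chromosome 5, 125277087 to 125341094, minus strand), the high-density lipoprotein receptor SR-BI, ranged from 29.2 to 52.0 TPM in hypothalamus SC (median 42.8), and the HFHS pools held 30.0, 21.6, 29.8, 45.9 and 36.7 TPM. The SC pools of hippocampus held 37.2, 27.5, 42.6, 35.01 and 41.5 TPM and the HFHS pools ranged from 27.5 to 39.7 TPM (median 32.8). In cortex it ranged from 3.55 to 65.4 TPM on SC (median 20.8) and from 3.92 to 31.0 TPM on HFHS (median 26.5). Every pair of groups overlapped. The lowest values of both cortical groups came from the short libraries, replicate 6. No comparison of Scarb1 passed the threshold in edgeR, although hypothalamus against cortex on SC, at log2 0.15 ± 0.31 SE (adjusted p = 0.754), was log2 1.195 (adjusted p = 0.0197) by limma on log2(TPM + 1).

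The 2 liver X receptors differed in level and in spread. Nr1h2 (chromosome 7, 44549616 to 44553951, minus strand), encoding the broadly expressed LXRβ, ranged from 71.3 to 115.8 TPM in hypothalamus SC (median 84.2), and the HFHS pools held 77.2, 76.6, 61.9, 115.3 and 84.7 TPM. In hippocampus the SC pools held 118.6, 107.9, 144.2, 109.2 and 103.0 TPM and the HFHS pools ranged from 92.3 to 114.3 TPM (median 103.5). In cortex it ranged from 16.8 to 102.7 TPM on SC (median 83.3) and from 27.3 to 134.8 TPM on HFHS (median 92.6). Hippocampus SC did not overlap cortex SC in TPM, but the edgeR test on counts gave log2 0.24 ± 0.18 (adjusted p = 0.331), and no comparison of Nr1h2 passed the threshold. Group means ran from 116.6 ± 16.4 TPM (SD, n = 5) in hippocampus SC through 103.3 ± 6.58 TPM (n = 7) in hippocampus HFHS, 89.8 ± 17.8 TPM (n = 6) in hypothalamus SC, 89.3 ± 34.9 TPM (n = 6) in cortex HFHS and 83.1 ± 19.8 TPM (n = 5) in hypothalamus HFHS to 77.1 ± 30.8 TPM (n = 6) in cortex SC.

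Nr1h3 (chromosome 2, 91184061 to 91202834, minus strand), encoding LXRα, was lower than Nr1h2 in all 35 libraries. In hippocampus the SC pools held 7.71, 8.67, 13.03, 9.78 and 14.04 TPM and the HFHS pools ranged from 13.3 to 20.7 TPM (median 16.4). In hypothalamus it ranged from 5.79 to 18.6 TPM on SC (median 11.8) and held 14.4, 14.9, 7.60, 18.5 and 15.7 TPM on HFHS. In cortex it ranged from 3.68 to 12.6 TPM on SC (median 10.4) and from 4.96 to 14.2 TPM on HFHS (median 7.57). All 7 hippocampus HFHS pools exceeded 4 of the 5 hippocampus SC pools, and hippocampus HFHS overlapped cortex HFHS only in the highest cortical pool.

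By edgeR with Benjamini-Hochberg adjustment, Nr1h3 was 1.77-fold higher in hippocampus than in cortex on HFHS (log2 0.83 ± 0.21 SE, adjusted p = 0.0045), against log2 -0.27 ± 0.23 on SC (adjusted p = 0.388). It passed on HFHS in each of the 13 fits that left out 1 library, at log2 0.76 to 0.94, and without the short libraries at log2 0.83. In hippocampus alone, HFHS differed from SC by log2 0.72 ± 0.21 (95% interval 0.27 to 1.17, unadjusted p = 0.0040, adjusted p = 0.876), the 44th smallest p of 19036 genes. The corresponding differences were log2 0.41 ± 0.26 in hypothalamus (adjusted p = 0.716) and log2 -0.32 ± 0.22 in cortex (adjusted p = 0.737). The diet difference in hippocampus minus that in cortex was log2 1.10 ± 0.31 (unadjusted p = 0.0013, adjusted p = 0.463), so that a difference between regions in the response of Nr1h3 to diet was not called. Group means of Nr1h3 were 16.9 ± 2.96 TPM (SD, n = 7) in hippocampus HFHS, 14.2 ± 4.02 TPM (n = 5) in hypothalamus HFHS, 11.8 ± 4.62 TPM (n = 6) in hypothalamus SC, 10.7 ± 2.76 TPM (n = 5) in hippocampus SC, 9.59 ± 3.21 TPM (n = 6) in cortex SC and 8.39 ± 3.11 TPM (n = 6) in cortex HFHS, each neighbouring pair overlapping.

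Within a library, Nr1h3 relative to Nr1h2 differed between the diets in hippocampus. The log2 ratio of Nr1h3 to Nr1h2 in TPM was -3.94, -3.64, -3.47, -3.48 and -2.88 on SC. On HFHS it ranged from -3.01 to -2.28 (median -2.73), and the groups overlapped only between the highest SC pool and the lowest HFHS pool. Means were -2.63 ± 0.26 (SD, n = 7) on HFHS and -3.48 ± 0.39 (n = 5) on SC, a difference of 0.85 (exact two-sided permutation test, p = 0.0025, adjusted p = 0.0227 over 27 ratio tests). Computed from counts in place of TPM, the difference was 0.80 (adjusted p = 0.0568). Without single libraries it was 0.74 to 1.004, and it passed in 6 of 12 such tests. In hypothalamus the diets differed by 0.43 (adjusted p = 0.273) and in cortex by -0.43 (adjusted p = 0.423), each by the exact permutation test. The hippocampal libraries also differed in mean transcript length, at 1665 to 1858 bases on SC. On HFHS it was 1852 bases in replicate 2 and 1576 to 1633 bases in the others. Inside the groups, r with that length over 35 libraries was 0.76 for Nr1h2 and -0.03 for Nr1h3. The part of transcript length in the ratio was not tested. The hippocampal astrocyte score was 7.34 ± 1.12 on SC and 7.42 ± 1.19 on HFHS, in mean log2 CPM, and the oligodendrocyte score was 10.89 on both. Other cell scores differed more between these groups: microglia at 4.97 ± 0.36 on SC and 5.64 ± 0.71 on HFHS, oligodendrocyte precursors at 3.41 ± 0.38 and 2.43 ± 0.66, and endothelial cells at 5.38 ± 0.84 and 4.90 ± 0.68. In the diet fit, 14 of 14 microglial (median log2 0.78), 0 of 9 precursor (median -0.94) and 1 of 10 endothelial markers (median -0.54) lay above 0. For ependymal markers it was 9 of 10 (median 0.42) and for choroid plexus markers 0 of 6 (median -0.43). None of these markers passed the threshold, and their part in the Nr1h3 values was not tested.

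Among leading transcripts, none of 81 exact permutation tests of their share of a gene's TPM passed after adjustment, with a smallest adjusted p of 0.102. The nearest included Abcg1-201 in hippocampus, whose share was 76.2 ± 4.32% (SD, n = 7) on HFHS and 85.5 ± 2.28% (n = 5) on SC, with ranges of 70.0 to 81.2% and 82.1 to 87.3% that did not overlap. Nr1h3-202 held 41.6% of Nr1h3 in hippocampus HFHS and 62.8% in cortex HFHS. Lcat has a single transcript in the set used.

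Set against all genes tested, the number of members called between regions was near the background or above it. Hypothalamus differed from cortex on SC in 4 of 10 members (Apoe, Clu and Lcat lower, Abcg1 higher), where 36.1% of all 21574 genes were called (17.7% higher, 18.3% lower). Hippocampus differed from cortex on SC in the same 4 members, where 30.8% of genes were called (15.4% higher, 15.3% lower). On HFHS, hypothalamus was lower than cortex in 3 members (Apoe, Clu and Lcat) with 23.9% of genes called (14.6% higher, 9.21% lower), and hippocampus differed from cortex in 5 (Apoe, Clu, Lcat and Lrp1 lower, Nr1h3 higher) with 24.2% of genes called (13.4% higher, 10.8% lower). No member differed between hypothalamus and hippocampus, on SC with 10.0% of genes called (5.86% higher, 4.13% lower) or on HFHS with 6.42% (4.24% higher, 2.18% lower). These comparisons share libraries and are not independent of each other.

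**Figure D3:**
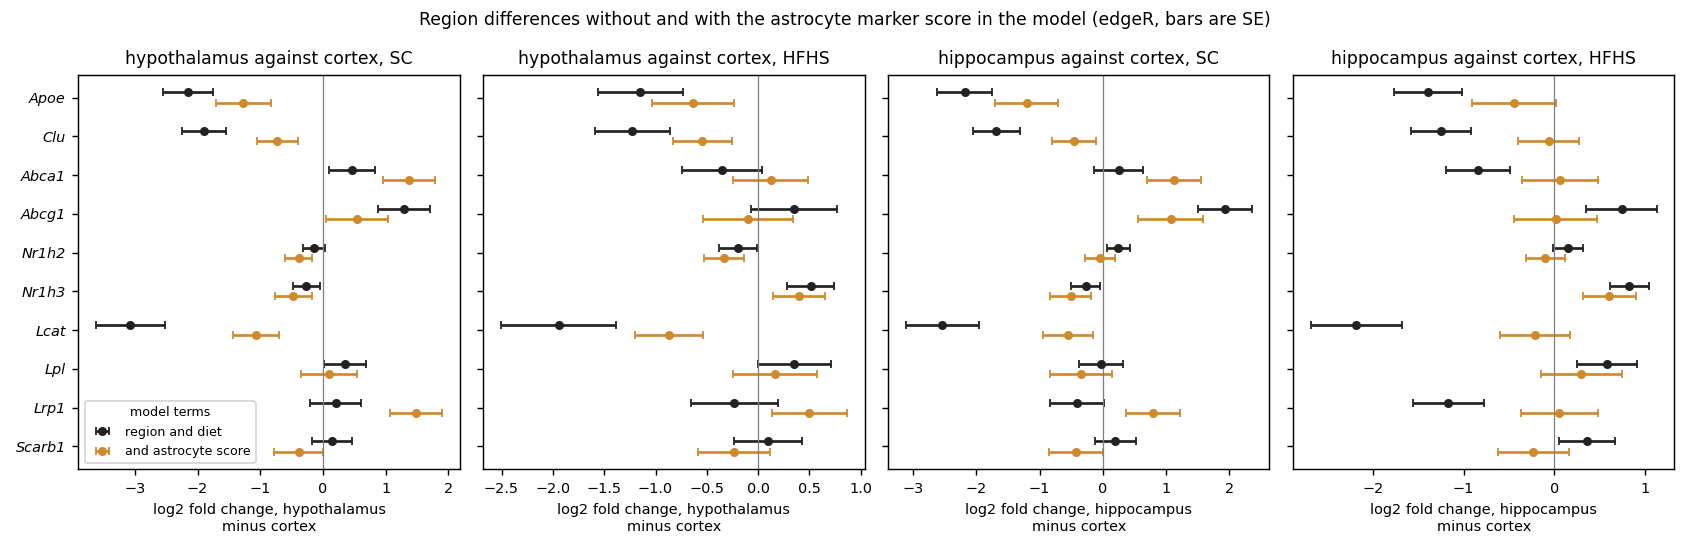
Log2 fold difference (± SE) of each of the 10 genes in hypothalamus and hippocampus against cortex on SC and on HFHS, by edgeR. Black points come from the model of region and diet and orange points from the model with the astrocyte score added. Lcat lies lowest in black, at -3.07 in hypothalamus SC, and the black values of Apoe, Clu and Lcat lie below 0 in all 4 comparisons.

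The astrocyte markers moved with the region differences of Apoe, Clu and Lcat. Past the threshold, they were lower than in cortex in 16 of 18 genes in hypothalamus SC, 17 of 18 in hippocampus SC, 5 of 18 in hypothalamus HFHS and 17 of 18 in hippocampus HFHS. Of all genes, 18.3, 15.3, 9.21 and 10.8% were lower, in the same order. Oligodendrocyte markers were called higher than in cortex in 4, 9, 2 and 7 of 12 genes, those of oligodendrocyte precursors in 9, 7, 9 and 5 of 9, and ependymal markers in 10 of 10 throughout. Of all genes, 17.7, 15.4, 14.6 and 13.4% were higher. The astrocyte score was 8.40 ± 0.75 in hypothalamus HFHS and 9.63 ± 0.23 in cortex HFHS. With each library's astrocyte score as a covariate in edgeR, Apoe (log2 -1.27, adjusted p = 0.042) and Lcat (log2 -1.06, adjusted p = 0.0399) were still lower in hypothalamus than in cortex on SC, and Abca1 (log2 1.37, adjusted p = 0.0192) and Lrp1 (log2 1.49, adjusted p = 0.0123) were higher. Clu (log2 -0.73, adjusted p = 0.114) and Abcg1 (log2 0.55, adjusted p = 0.48) no longer passed there. No member passed in the other 3 comparisons with cortex, where Lcat was at log2 -0.55, -0.87 and -0.21 in hippocampus SC, hypothalamus HFHS and hippocampus HFHS. Nr1h3 in hippocampus HFHS was at log2 0.60 (adjusted p = 0.355). The score and the region are largely confounded, since cortex had the highest score of the 3 regions on both diets, so that region and astrocyte content cannot be told apart.

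For diet, no member and no other gene passed the threshold in any region by edgeR: 0.00% of 19272 genes were called in hypothalamus, 0.00% of 19036 in hippocampus and 0.00% of 17844 in cortex. At an unadjusted p under 0.05 the counts were 1639, 984 and 1652 genes, and DESeq2 called 117, 16 and 493. The median diet difference over the 10 members was log2 0.02, 0.12 and -0.02 in the 3 regions, against -0.01, 0.00 and -0.02 over all genes. The tests of whether the diet difference itself differed between regions also called 0.00% of 21574 genes.

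In hypothalamus the members with the smallest p for diet were Lcat at log2 1.11 ± 0.39 SE (95% interval 0.26 to 1.95, adjusted p = 0.482), Apoe at log2 0.67 ± 0.24 (interval 0.14 to 1.19, adjusted p = 0.494) and Clu at log2 0.56 ± 0.23 (adjusted p = 0.546). One pool weighed on them: hypothalamus HFHS 2 had the highest Apoe, Clu and Lcat of its group and an astrocyte score of 9.71, against a group mean of 8.40 ± 0.75 on HFHS and 7.69 ± 0.36 on SC. Without it the differences were log2 0.47 for Lcat and 0.39 for Apoe. All 18 astrocyte markers had a fitted value above 0 in the same comparison, with a median of log2 0.87 and none past the threshold. Above 0 there were also 14 of 14 microglial (median 0.37) and 5 of 5 choroid plexus markers tested (median 2.44). Only 0 of 9 precursor (median -1.33), 0 of 10 endothelial (median -0.48), 1 of 9 neuronal (median -0.36) and 1 of 10 ependymal markers (median -0.25) were. The part of these in the values was not tested. With the astrocyte score as a covariate the differences were log2 0.09 for Lcat and 0.21 for Apoe.

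In cortex the members with the smallest p for diet were Abca1 and Lrp1, given above, and Abcg1 at log2 0.99 ± 0.45 SE (95% interval 0.03 to 1.95, adjusted p = 0.522 by edgeR). Apoe was at log2 -0.30 ± 0.50 and Clu at -0.06 ± 0.32. The astrocyte score was 9.76 ± 0.30 on SC and 9.63 ± 0.23 on HFHS, and the oligodendrocyte score 9.14 ± 0.54 and 9.52 ± 0.95. In the diet fit, 9 of 12 oligodendrocyte markers lay above 0 (median log2 0.65), as did 11 of 14 microglial (median 0.32) and 1 of 10 endothelial markers (median -0.50). Above 0 there were also 5 of 18 astrocyte (median -0.22) and 0 of 7 fibroblast markers (median -0.78). For neuronal markers it was 1 of 9 (median -0.20) and for choroid plexus markers 1 of 6 (median -0.36). None of these markers passed the threshold. Their part in the values of Abca1, Lrp1 and Abcg1 was not tested. The remaining member differences between diets were between log2 -0.37 and 0.47 in hippocampus, Nr1h3 apart.

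**Figure D4:**
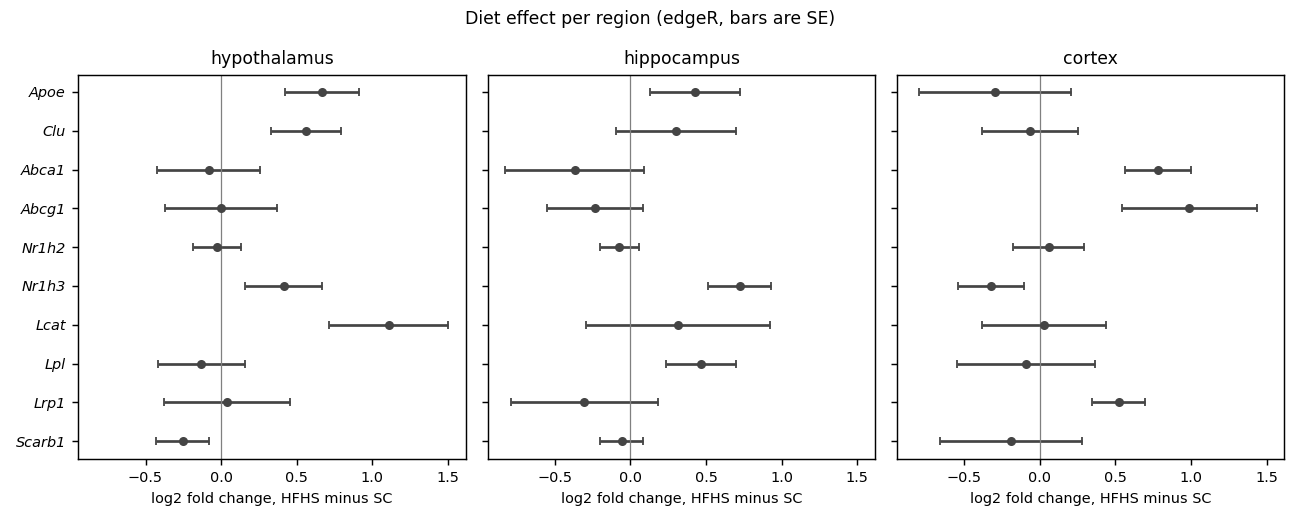
Log2 fold difference (± SE) between HFHS and SC of each of the 10 genes in hypothalamus, hippocampus and cortex, by edgeR. None passed the threshold after adjustment, and the values farthest from 0 are Lcat in hypothalamus at 1.11, Abcg1 in cortex at 0.99, Abca1 in cortex at 0.78 and Nr1h3 in hippocampus at 0.72.

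The wider pathway was read from 6 lists: LXR targets, LXR partners (retinoid X receptors and cofactors), other apolipoproteins, lipoprotein receptors, control of lipases, and sterol synthesis and handling. For diet, none of the genes on any list passed the threshold in any region. The genes with the smallest p in hypothalamus included Angptl4, an inhibitor of lipoprotein lipase, at log2 1.23 (adjusted p = 0.472), and Mylip, which targets the low-density lipoprotein receptor for degradation, at log2 0.64 (adjusted p = 0.48). In cortex they included the nuclear receptor corepressor Ncor1 at log2 -0.95 (unadjusted p = 0.0011, adjusted p = 0.132) and fatty acid synthase Fasn at log2 0.70 (adjusted p = 0.275). In hippocampus Hdac3, the deacetylase of the corepressor complex, was at log2 -0.39 and Trem2, a microglial lipid receptor, at log2 0.88 (both with adjusted p = 0.876).

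Between regions, the LXR targets moved in both directions. Of the 14 tested, 2 were higher and 2 lower in hypothalamus than in cortex on SC, where 17.7% of all genes were higher and 18.3% lower, so that the count lay near the background. In hippocampus on SC 0 were higher and 6 lower (all genes 15.4% and 15.3%). On HFHS 3 were higher and 1 lower in hypothalamus (all genes 14.6% and 9.21%), and 2 and 4 in hippocampus (all genes 13.4% and 10.8%). Smpdl3a, a phosphodiesterase, was lower in hypothalamus by log2 -1.79 (adjusted p = 4.46e-05), with means of 99.2 TPM against 221.7 TPM in cortex SC. The phospholipid transfer protein Pltp was higher in hypothalamus by log2 1.46 on SC (adjusted p = 0.0112) and by log2 2.46 on HFHS (adjusted p = 0.00020), where its mean was 1265.4 TPM against 203.7 TPM in cortex. Scd1, a fatty acid desaturase, and Abcg4, a sterol transporter, were lower in hippocampus than in cortex on HFHS by log2 -1.48 (adjusted p = 0.00040) and -1.63 (adjusted p = 0.0033). Among the 16 LXR partners, 4 were called higher and 1 lower in hypothalamus than in cortex on SC (all genes 17.7% and 18.3%). Rxrg, the retinoid X receptor γ, was lower than in cortex in all 4 comparisons, by log2 -1.43 and -1.52 in hypothalamus and -2.40 and -1.71 in hippocampus (SC and HFHS).

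Of the lipoprotein receptors, 18 were tested, and 4, 4, 5 and 4 were higher and 2, 1, 2 and 1 lower than in cortex in hypothalamus SC, hippocampus SC, hypothalamus HFHS and hippocampus HFHS. The background was 17.7, 15.4, 14.6 and 13.4% of all genes higher and 18.3, 15.3, 9.21 and 10.8% lower, from which counts of this size in 18 genes are not set apart. Lrp2, or megalin, was higher in all 4, but from a mean of 0.0039 TPM in cortex SC to 0.80 TPM in hypothalamus SC. Vldlr, a receptor for apolipoprotein E and reelin, was higher in hippocampus on SC by log2 1.76 (adjusted p = 2.14e-05), at 45.7 ± 1.964 TPM (SD, n = 5) against 9.82 ± 4.25 TPM (n = 6) in cortex. Apolipoprotein D (Apod), also made by oligodendrocytes, was higher in hippocampus on both diets, at log2 1.21 (adjusted p = 0.0463) on SC and log2 1.505 (adjusted p = 0.0118) on HFHS, and its mean on SC was 2530.3 TPM against 637.9 TPM in cortex.

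Of the 19 sterol genes, 5, 10, 3 and 4 were higher and 5, 4, 3 and 4 lower than in cortex, in the same order. Read against the same shares of all genes, the 10 higher in hippocampus SC lay farthest from the background (15.4%). Cyp46a1, the cholesterol 24-hydroxylase that makes the LXR ligand 24S-hydroxycholesterol, was lower in all 4 comparisons, at log2 -2.15, -2.07, -1.83 and -1.68, with means of 22.2 TPM in hypothalamus SC and 61.6 TPM in cortex SC. Neuronal markers also summed to less outside cortex, as given above, and their part in the Cyp46a1 values was not tested. Gramd1c, an intracellular sterol transport protein, was higher in all 4, at log2 3.21, 1.97, 2.85 and 2.25. The lipase inhibitor Angptl4 was lower in hypothalamus and hippocampus on SC, at log2 -0.90 (adjusted p = 0.0375) and -1.65 (adjusted p = 0.0010). Over all genes tested, the median difference from cortex in mean log2 CPM was 0.17 in hypothalamus and 0.13 in hippocampus on SC, and 0.09 and 0.11 on HFHS, under TMM scaling. Scaled by library size alone it was 0.48, 0.31, 0.29 and 0.23. In the edgeR fits that gave the region differences, the median over all genes was log2 0.065, 0.041, 0.012 and 0.046, in the same order.

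How the members varied inside the groups was described by correlating log2 CPM over the 35 libraries after the group means were subtracted. Points from 1 pool share its dissociation, sort, library and depth, and no test was applied. Apoe, Clu and Lcat varied together (Pearson r = 0.84 for Apoe and Clu, 0.81 for Apoe and Lcat, 0.82 for Clu and Lcat), as did Abca1 and Lrp1 (r = 0.85). Abca1 and Abcg1 had r = 0.28, and Nr1h2 and Nr1h3 r = 0.12. Against the marker scores, r with the astrocyte score was 0.87 for Lcat, 0.74 for Clu, 0.66 for Lrp1, 0.54 for Apoe and 0.49 for Abca1. Abcg1 had r = 0.85 with the oligodendrocyte score. Scarb1 had r = 0.81 with the mural cell score and 0.69 with the endothelial score, and Lpl had r = 0.71 with the endothelial and 0.63 with the microglial score. Nr1h3 reached at most r = 0.33, with the score of oligodendrocyte precursors.

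**Figure D5:**
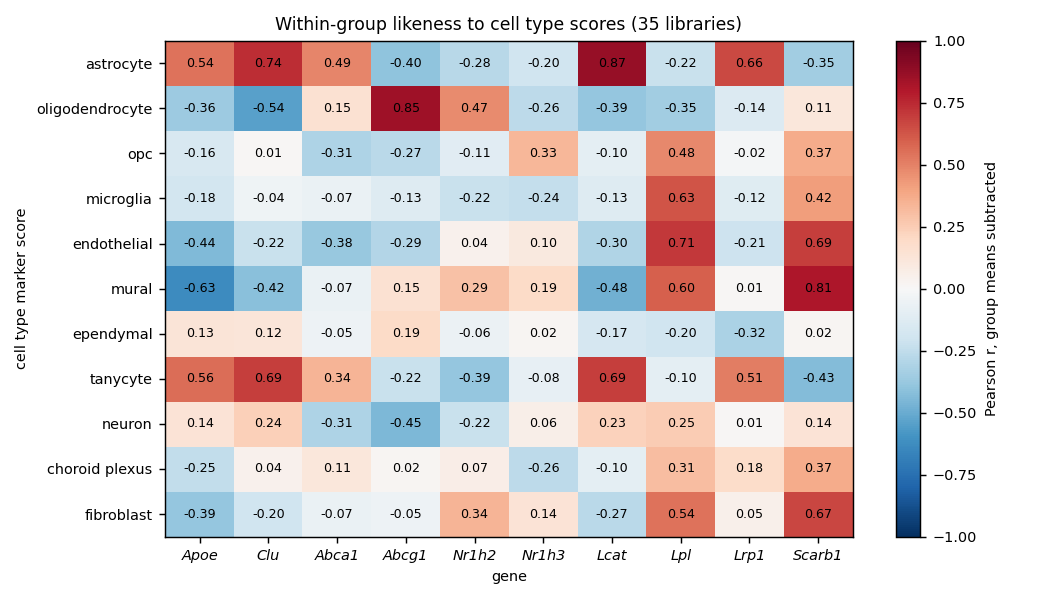
Pearson correlation of each of the 10 genes with 11 cell type scores over 35 libraries, on log2 CPM with group means subtracted. The colour gives r, and the highest values are Lcat with the astrocyte score (0.87), Abcg1 with the oligodendrocyte score (0.85) and Scarb1 with the mural cell score (0.81).

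The genes most like each member inside the groups, among 9776 candidates, differed from member to member. For Lcat they were Ntsr2 (r = 0.98), a neurotensin receptor that is an astrocyte marker of the score, Dbx2 (0.97) and Cldn10 (0.97). For Apoe they were Ramp1 (0.97), Gstm1 (0.96) and Pxmp2 (0.96), and for Clu they were Chil1 (0.93), Fam213a (0.92) and the LXR target Smpdl3a (0.92). For Abca1 they were Rptor (0.93) and Mtor (0.91), both of the mTOR kinase complex, and Kidins220 (0.91), and for Lrp1 they were Plxnb1 (0.92), Kidins220 (0.92) and Cluh (0.91). For Abcg1 they were Sez6l2 (0.92), Slc24a2 (0.91) and Unc5b (0.91), for Scarb1 Myadm (0.95), Mcm6 (0.93) and B3gnt2 (0.93), and for Nr1h2 Vps16 (0.90), Dbnl (0.89) and Xab2 (0.88). Lpl was most like Arrdc1 (0.81), Layn (0.81) and Serping1 (0.80). Nr1h3 had no close partner, with Pth1r (0.66), Rmdn2 (0.62) and Sod3 (0.61) the nearest. Over the same libraries, r with the mean transcript length was 0.76 for Nr1h2, 0.56 for Scarb1, -0.39 for Clu and -0.68 for Apoe, and between -0.30 and 0.31 for the other 6 members, and the part of transcript length in these likenesses was not tested.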

How the data were processed

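RNA of ACSA2-sorted cells from 35 pools was amplified with SMART-Seq v4, a kit that keeps no strand, per the labels' protocols. Per the submitters' processing notes, the authors ran FastQC and Salmon on GRCm38, and deposited for each library the TPM and the estimated count of 140948 transcripts. Tool versions and annotation release: not given in the sources used here. Transcript values were summed per gene through GENCODE M21 names (139852 transcripts matched, 1096 unmatched with 0.214 to 0.535% of reads), and summed estimated counts were rounded. Reads of near-identical or overlapping genes may be split by the estimation.

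The main test was edgeR 4.0.16 (R 4.3.3; filterByExpr, TMM, quasi-likelihood, Benjamini-Hochberg over all genes, threshold 0.05). Diet was fitted within each region, and regions and their interaction with diet in 1 model of 35 libraries. SE was taken as the fold change over the square root of F. Alternatives used DESeq2 1.42.0, limma 3.58.1 on log2(TPM + 1) for genes with a mean of at least 0.5 TPM, other scaling, no filter, the replicate number as a block, the astrocyte score as a covariate, and left-out libraries. Ratios and transcript shares used exact two-sided permutation tests in Python 3.11.15. Levels are TPM with SD between pools, and p-values measure the spread between pools.

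Replicate numbers were taken to pair samples only if their deviations from the group means correlated above 0.1 in every pair. That rule held for hypothalamus and cortex on SC alone (6 pairs, r = 0.11 to 0.53). There the block changed no member's call. Named were all 10 members, the 3 genes most like each, up to 3 genes per pathway list and comparison by smallest p, Atp1b2 and markers. The members and lists were chosen with earlier results of these data known. Promoters are RefSeq's (GRCm38.p6).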

Additional observations from a re-analysis of the deposited data

Results flagged for a closer look

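Within the 60 sets of a member in a group, 8 held 1 library whose gap to its nearest neighbour took up more of the group's range than the 95% critical value of Dixon's test allows, and chance alone flags a few of that many. Abca1 was high in hippocampus HFHS 2 (11.67 TPM, next 5.35), and Abcg1 in hypothalamus HFHS 3 (24.31 TPM, next 8.13). Hypothalamus HFHS 2 was high in Apoe (22835.6 TPM, next 12254.0) and in Lcat (155.4 TPM, next 50.4); this pool also had the highest astrocyte score of its group (9.71, group mean 8.40). Apoe was high in cortex HFHS 6 (37825.9 TPM, next 22192.0), and Scarb1 was low in the same library (3.925 TPM, next 23.6). Nr1h2 was low in cortex SC 6 (16.77 TPM, next 81.0), and Lrp1 was low in hypothalamus SC 6 (21.92 TPM, next 32.6). These 3 replicates numbered 6 are the libraries of short mean transcript length (1191, 1034 and 1469 bases).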

How the results depend on the processing

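The region differences of Apoe, Clu, Lcat and Abcg1 on SC kept direction and call with DESeq2, RLE scaling, no filter, limma on TPM, the replicate block, without the 3 short libraries and without any single library. They depended on the astrocyte score: with it as covariate no member was called in hippocampus against cortex (0 on SC, 0 on HFHS) or in hypothalamus against cortex on HFHS (0), Lrp1 in hippocampus against cortex on HFHS turned to log2 0.0558, and the genes called fell to 963, 860 and, for hypothalamus against cortex on SC, 3985. Without single libraries, members called in hypothalamus against cortex on HFHS ranged from 0 to 3 (0 without cortex HFHS 6, but 2 without all 3 short libraries).

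For diet in cortex, 0 genes became 493 (DESeq2), 28 (RLE scaling), 32 (no filter), 412 (replicate block) and 515 (without the short libraries), and 0 to 141 without single libraries; members called became 2 (DESeq2) and 1 (without the short libraries). In hypothalamus they became 117 (DESeq2) and 8 (without the short library), and 0 to 8 without single libraries, and in hippocampus 16 (DESeq2). For diet by region, 0 became 132 (DESeq2), 299 (block), 475 (without the short libraries) and 0 to 180 for hypothalamus and cortex, 22 (DESeq2) and 0 to 1 for hippocampus and cortex, and 7 (DESeq2) for hypothalamus and hippocampus. Between hypothalamus and hippocampus, 1385 genes on HFHS became 2160 (DESeq2), 2597 (block) and 797 to 1401, and 2157 on SC became 1298 (without hippocampus SC 1) to 2184.

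Abcg1 to Abca1 in hippocampus against cortex was 2.12 (adjusted p = 0.153) on HFHS by sign flips within same-numbered pairs, and on SC 1.99 (adjusted p = 0.0536) without the short libraries, 1.99 (adjusted p = 0.153) by sign flips and 1.45 to 2.20 without single libraries (past the threshold in 1 of 11). Nr1h3 to Nr1h2 between diets in hippocampus was 0.80 (adjusted p = 0.0568) from counts, 0.81 (adjusted p = 0.153) by sign flips and 0.74 to 1.004 without single libraries. Between hippocampus and cortex on HFHS it went from 0.71 to 0.89 (adjusted p = 0.0341) without the short libraries, and 0.54 to 0.89 without single ones. Too few pairs exist for sign flips to pass the threshold with this adjustment. For Abcg1 to Abca1 on SC, p without the short or single libraries was likewise the smallest that the remaining libraries allow. The cause of the other changes was not tested.

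Except for hypothalamus and cortex on SC (mean r = 0.30), replicate numbers did not meet the rule for pairing, which does not exclude structure shared by a number. Correlations of same-numbered deviations ran from -0.23 to 0.84 for diet in cortex (mean 0.42), where 4 of 6 libraries correlated best with their own number. For diet in hippocampus they ran from 0.08 to 0.82 (mean 0.45), with 3 of 5 best with their own number. With the block, 7 members were called in hippocampus against cortex on HFHS (adding Abca1, log2 -0.99, and Abcg1, log2 1.10) and 2 in hypothalamus against cortex on HFHS. Depth (92 to 644 reads per library) limits Lpl, and transcript-level sums limit Lrp1. Of the members' single fold changes under all alternatives, 2361 kept direction and call, 28 lost a call and 12 gained one; another 168, past the threshold in neither fit, changed sign.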
